A study of Homo sapiens with 6 samples.

Results

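The ubiquitin-specific proteases were followed as a family of numbered USP genes in the human pancreatic carcinoma line MIA PaCa-2. A gene belonged to the family if its row in the deposited expression table carried a single name made of USP, a number and at most an X. USP18, which is induced by interferon, was left out. This gave 49 of the 18268 rows. Cells overexpressing LINC00901, a long noncoding RNA, gave 3 libraries, and cells with the pCDH vector control gave 3. Both groups grew in DMEM with fetal bovine and horse serum. The labels do not say whether either line is a clone, nor whether replicates came from cultures grown apart. The p-values therefore reflect the spread of these 6 libraries alone, which may be technical. LINC00901 was not analysed here, so its overexpression was not checked and the groups are as labelled.

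Ubiquitin is a small protein that cells attach to other proteins, often in chains, to mark them for degradation by the proteasome or to change their activity. USP enzymes are cysteine proteases that remove it. They form the largest family of human deubiquitinases, and many act in complexes with partner proteins that set where they work or switch them on.

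Values are FPKM, fragments scaled by gene length and by mapped fragments, so levels can be compared between genes per length. FPKM over all rows summed to between 127768 and 128538 in the overexpression libraries and between 87162 and 88738 in the vector libraries, and the depth in reads is unknown. The median tested gene was higher by 0.27 log2 in the overexpression libraries. Each USP difference is therefore given unscaled and, where stated, relative to that median gene. Among markers of the line, KRT18 stood at 62.48, 62.96 and 86.92 FPKM in overexpression libraries and at 105.38, 90.93 and 103.99 in vector libraries. KRT19 stood at 22.89, 23.95 and 25.02 FPKM in overexpression libraries and at 2.22, 2.98 and 5.92 in vector libraries. The mesenchymal filament gene VIM stood at 543.43, 553.14 and 633.62 FPKM in overexpression libraries against 238.11, 197.85 and 250.45. These markers thus differed between the groups too, and their part in the USP differences was not tested. The epithelial adhesion genes CDH1 and EPCAM were at or near 0, with 0.14 FPKM as the highest value of either, so the label of an epithelial cell has keratin but not these markers behind it.

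Of the 49 members, 41 averaged 1 FPKM or more over all libraries and were tested. The 8 others were USP53, USP6, USP41, USP44, USP50, USP43, USP29 and USP26. USP53 came closest to the limit, at 1.09, 0.58 and 0.71 FPKM in overexpression libraries and 0.96, 1.11 and 0.88 in vector libraries. USP6, a hominoid fusion gene derived in part from USP32, stood at 0.09, 0.05 and 0.09 FPKM against 0.22, 0.21 and 0.11 in the vector libraries. USP41 was listed at 0.41 FPKM in overexpression replicate 2 and at 0 elsewhere. No value of the other 5 was above 0.26 FPKM, and USP26 was listed at 0 in every library.

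USP22, the deubiquitinase of the SAGA coactivator complex, was the most abundant member in every library. It stood at 44.01, 42.64 and 44.10 FPKM in overexpression libraries and at 42.48, 42.19 and 40.11 in vector libraries. The groups did not overlap, but the difference was small, 0.07 log2 with a 95% interval of -0.09 to 0.22 (limma adjusted p = 0.418). USP22 was called lower after quantile normalization (-0.56 log2, limma adjusted p = 0.00158) and with libraries scaled to equal FPKM sums (-0.47 log2, limma adjusted p = 0.00175), so its direction depended on the scaling. USP22 was 10.7, 11.1 and 11.3% of the summed USP level in overexpression libraries and 12.4, 12.4 and 11.5% in vector libraries.

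Next in mean level over the 6 libraries came USP24, USP11, USP9X, USP12 and USP1. USP24, among the largest proteins of the family, stood at 28.11, 23.13 and 26.98 FPKM in overexpression libraries and at 21.61, 22.08 and 23.69 in vector libraries. The groups overlapped, and USP24 did not pass the test unscaled (0.21 log2, limma adjusted p = 0.118). USP9X, an X-linked enzyme known to stabilise the survival protein MCL1, stood at 24.87, 22.22 and 22.53 FPKM in overexpression libraries against 19.62, 20.40 and 20.18. All 3 overexpression values of USP9X were the higher ones, at 0.20 log2, but the adjusted p was 0.0699 in limma. USP9X and USP24 were called in opposite directions by different scalings. Corrected for gene length and GC content, USP9X was higher by 0.36 log2 and USP24 by 0.26 (limma adjusted p = 0.00602 and 0.0375). After quantile normalization they were at -0.29 and -0.30 log2 (limma adjusted p = 0.0248 and 0.0363), and with equal FPKM sums both were at -0.33 log2 (limma adjusted p = 0.0127 and 0.0271). USP12, which works with the partner proteins WDR48 and WDR20, stood at 19.90, 16.81 and 18.08 FPKM in overexpression libraries and 20.49, 21.26 and 18.49 in vector libraries. USP1, which removes ubiquitin from FANCD2 and PCNA in DNA repair, stood at 20.40, 14.68 and 17 FPKM in overexpression libraries and 21.53, 21.96 and 19.17 in vector libraries. For both genes the groups overlapped, and the unscaled differences of -0.13 log2 for USP12 and -0.27 log2 for USP1 did not pass (limma adjusted p = 0.288 and 0.130). USP1 was called lower under each of the 4 other scalings, at -0.39 log2 with the length and GC correction (limma adjusted p = 0.0280) to -0.80 with equal FPKM sums (limma adjusted p = 0.00338). USP12 was called lower after centring, after quantile normalization and with equal FPKM sums (limma adjusted p = 0.0290, 0.00413 and 0.00229).

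The order of levels was much alike in both groups, with a Spearman correlation of 0.96 between the group means of the 41 tested members. This is a description over genes measured in the same libraries. USP11 stood at place 2 among overexpression means and at place 6 among vector means, and USP1 at place 9 and at place 3. Means above 10 FPKM were reached by 15 members in overexpression libraries and by 11 in vector libraries.

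**Figure D1:**
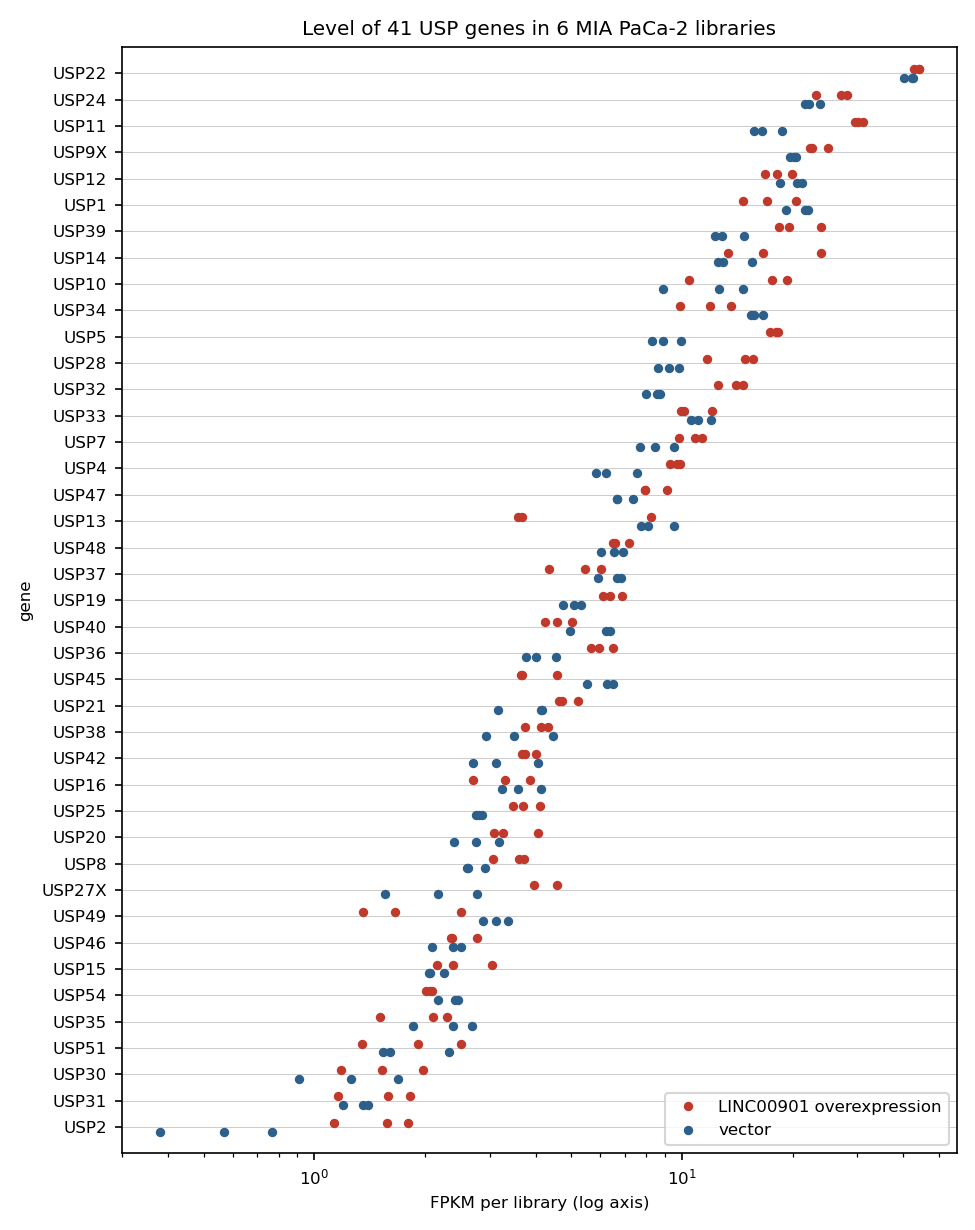
FPKM of the 41 tested USP genes (horizontal log axis), with 1 point per library, overexpression points drawn above vector points for each gene, and genes ordered by mean level. USP22 leads in all 6 libraries, USP11 and USP5 show separate groups, and USP27X lacks a point for the library in which it was listed at 0.

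Summed over the 49 members, USP expression was 412, 384 and 391 FPKM in overexpression libraries and 342, 339 and 348 FPKM in vector libraries. As a share of each library's FPKM sum it was 0.321, 0.300 and 0.306% in overexpression libraries and 0.392, 0.389 and 0.392% in vector libraries. The family's sum was thus higher in FPKM and lower as a share of all FPKM, and in both cases the groups did not overlap.

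The comparison of overexpression with vector libraries asked which USP genes differ between them. On unscaled values 10 of 41 tested members were higher and 3 lower in limma at an adjusted p under 0.05, against 37.4% higher and 11.9% lower among all 9694 tested rows. In either direction 31.7% of members passed, below the 49.2% of all tested rows. The groups did not overlap for 20 members, 16 higher and 4 lower, or 48.8% of them, where 60.6% of all tested rows had groups that did not overlap (44.9% higher and 15.6% lower). The median member differed by 0.20 log2, below the 0.27 log2 of the median tested gene. With 0.5 added to each FPKM value, as throughout, no member differed by more than 1 log2. With 0.1 added, the low-level USP2 differed by 1.27 log2.

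These counts depended on how libraries were scaled. With each library centred on its median, 5 members were higher and 9 lower, against 24% and 19.2% of all tested rows (43.3% in either direction). With quantile normalization 4 were higher and 12 lower (19.2% and 20.9% of all rows, 40.1% in either direction). With a correction for gene length and GC content 10 were higher and 7 lower (19.9% and 18.8% of all rows, 38.7% in either direction). With libraries scaled to equal FPKM sums 2 were higher and 17 lower (11.9% and 34.5% of all rows, 46.4% in either direction). USP5 and USP11 were called higher, and USP34, USP45 and USP49 lower, on the unscaled values and under each of these 4 other scalings. Those 5 genes are described first. For USP34, USP45 and USP49, centring, quantile normalization and equal FPKM sums each moved the difference further down. Those scalings could therefore hardly end their calls. USP34 went from -0.43 log2 to -0.64, -0.83 and -0.96 under them. With the length and GC correction USP34 was at -0.29 log2 (limma adjusted p = 0.0475).

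**Figure D2:**
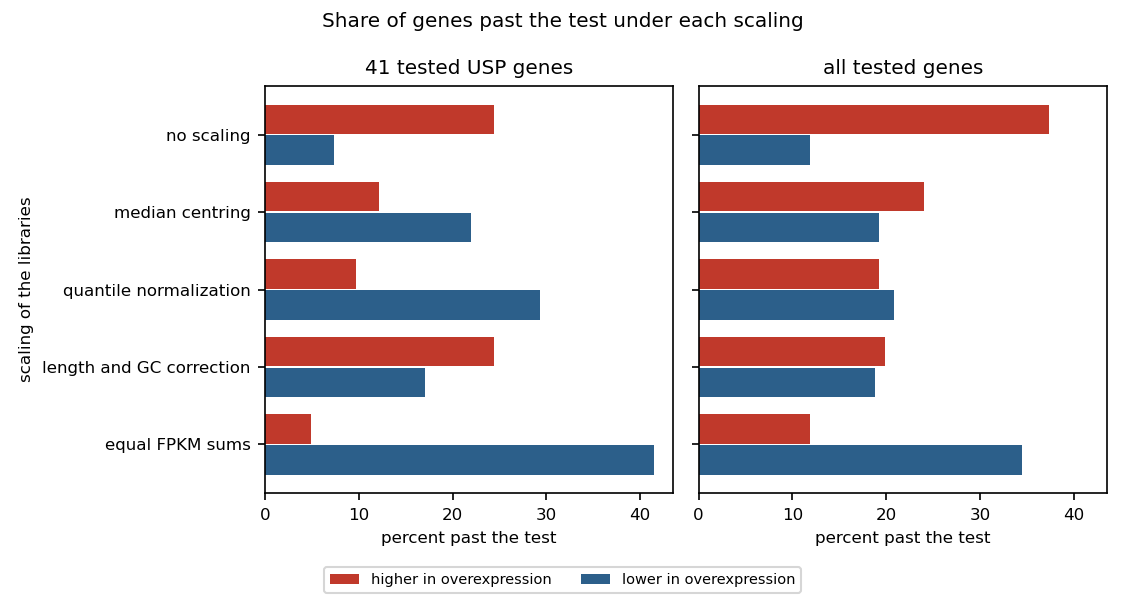
Percent of tested genes past the limma test under 5 scalings of the libraries, for the 41 USP genes (left) and all tested genes (right), with red bars for genes higher and blue bars for genes lower in overexpression libraries. The balance of USP calls shifts from 10 higher and 3 lower without scaling to 2 higher and 17 lower with equal FPKM sums.

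USP5 cleaves free ubiquitin chains and so returns ubiquitin to the pool. It stood at 17.31, 18.21 and 18.04 FPKM in overexpression libraries and at 9.91, 8.86 and 8.27 FPKM in vector libraries. Every overexpression value was well above every vector value. The means were 17.9 ± 0.478 and 9.01 ± 0.831 FPKM (SD, n = 3 each), a 1.98-fold ratio. The log2 difference of 0.95 (SE 0.0943, 0.69 relative to the median gene) was the largest in the family on the FPKM + 0.5 scale (limma adjusted p = 0.000433). With equal FPKM sums it was 0.43 (limma adjusted p = 0.0118).

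USP11, an X-linked enzyme that acts in repair by homologous recombination, stood at 29.45, 30.13 and 31.03 FPKM in overexpression libraries. In vector libraries it stood at 16.51, 15.67 and 18.72 FPKM. The replicates lay close together in both groups, with means of 30.2 ± 0.793 and 16.97 ± 1.58 FPKM (SD, n = 3 each). The log2 difference was 0.82 (SE 0.0894, 0.55 relative to the median gene; limma adjusted p = 0.000617), and with equal FPKM sums it was 0.28 (limma adjusted p = 0.0333).

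Among the members that fell, USP45 is known to act on the repair nuclease subunit ERCC1. It stood at 4.57, 3.67 and 3.66 FPKM in overexpression libraries and at 6.51, 5.50 and 6.27 in vector libraries. The groups were separate, and USP45 fell by 0.56 log2 (SE 0.126; -0.83 relative to the median gene; limma adjusted p = 0.00993). It passed when any single library was left out.

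USP49, which has been described as a histone deubiquitinase, stood at 1.36, 1.66 and 2.50 FPKM in overexpression libraries and at 3.12, 2.88 and 3.37 in vector libraries. USP49 fell by 0.66 log2 (SE 0.192; -0.92 relative to the median gene; limma adjusted p = 0.0273). USP34, a very large enzyme linked to Wnt signalling through axin, stood at 13.57, 9.85 and 11.88 FPKM in overexpression libraries and at 15.42, 15.71 and 16.57 in vector libraries. USP34 fell by 0.43 log2 (SE 0.125; -0.69 relative to the median gene; limma adjusted p = 0.0270). Both calls were lost when certain single libraries were left out. The USP49 adjusted p was 0.0735 and 0.0787 without overexpression replicates 1 and 2, and 0.0622 and 0.0731 without vector replicates 1 and 3. That of USP34 was 0.0562 and 0.0662 without overexpression replicates 2 and 3, and 0.0515, 0.0589 and 0.0705 without vector replicates 1, 2 and 3.

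The promoters of 4 of these genes are shown because USP5 and USP11 were higher, and USP34 and USP45 lower, under all 5 scalings and each has 1 window. USP49, lower under all 5 as well, has 2 windows, which are not printed. Each window runs from 250 bases before to 50 after the annotated start, from RefSeq on GRCh38.p14, a later build than the hg19 used for the FPKM values. The windows are chr12:6851900-6852199 on the plus strand for USP5, chrX:47232759-47233058 plus for USP11, chr2:61471038-61471337 minus for USP34 and chr6:99515374-99515673 minus for USP45. Capitals mark GGGCGG, the GC box, and CCAAT, the CCAAT box, on either strand.
USP5: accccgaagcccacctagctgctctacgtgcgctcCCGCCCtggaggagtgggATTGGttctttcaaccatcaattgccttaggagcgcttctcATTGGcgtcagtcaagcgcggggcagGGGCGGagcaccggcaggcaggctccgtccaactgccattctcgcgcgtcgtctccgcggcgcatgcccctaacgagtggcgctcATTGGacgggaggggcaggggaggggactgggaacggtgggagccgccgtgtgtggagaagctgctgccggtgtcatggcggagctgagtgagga
USP11: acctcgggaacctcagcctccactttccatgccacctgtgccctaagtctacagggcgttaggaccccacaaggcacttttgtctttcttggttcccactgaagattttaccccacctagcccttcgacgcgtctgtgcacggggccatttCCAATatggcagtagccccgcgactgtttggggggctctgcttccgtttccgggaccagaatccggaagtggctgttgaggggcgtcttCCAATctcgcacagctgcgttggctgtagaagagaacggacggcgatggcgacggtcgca
USP34: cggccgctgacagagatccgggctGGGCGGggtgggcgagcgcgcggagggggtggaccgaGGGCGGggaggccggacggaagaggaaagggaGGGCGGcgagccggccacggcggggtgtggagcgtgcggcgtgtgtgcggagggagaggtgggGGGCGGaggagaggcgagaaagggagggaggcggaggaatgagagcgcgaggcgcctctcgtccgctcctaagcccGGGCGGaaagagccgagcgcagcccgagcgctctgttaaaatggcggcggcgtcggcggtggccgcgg
USP45: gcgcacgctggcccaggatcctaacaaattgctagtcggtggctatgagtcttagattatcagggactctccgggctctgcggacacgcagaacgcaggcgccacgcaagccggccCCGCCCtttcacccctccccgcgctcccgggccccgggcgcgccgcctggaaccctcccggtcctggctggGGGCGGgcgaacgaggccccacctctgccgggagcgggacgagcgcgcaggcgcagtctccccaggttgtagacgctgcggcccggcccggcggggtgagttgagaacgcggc

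The USP5 window held 3 CCAAT and 2 GGGCGG matches, and that of USP11 held 2 CCAAT and no GGGCGG. USP34 had 5 GGGCGG matches and USP45 had 2, and neither had CCAAT. The windows of USP49 held 4 and 2 GGGCGG matches, and 1 of them held a CCAAT. RefSeq windows were found for 38 of the 49 members, 52 windows in all. GGGCGG occurred in 37 of the 52 (71.2%), against 45.0% of all 35116 windows, and CCAAT in 13 (25%), against 34.6%. Of the windows of members called higher, 11 of 13 held GGGCGG and 3 held CCAAT. All 4 windows of members called lower held GGGCGG and 1 held CCAAT. The AP-1 motif TGANTCA and the CRE motif TGACGTCA were in none of the 52, against 7.71% and 1.85% of all windows. CACGTG was found in 4 and TATAAA in 3 of the 52 (7.26% and 11.5% of all windows). Both strands were searched, and motifs did not exclude each other. A match is a description of these letters only.

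The other 8 members called higher without scaling each lost the call under at least 1 scaling. USP32, a membrane-associated enzyme of the Golgi and endosomes, stood at 14.69, 12.53 and 13.99 FPKM in overexpression libraries and at 7.99, 8.55 and 8.73 in vector libraries. Its difference of 0.67 log2 (SE 0.0960; limma adjusted p = 0.00163) also passed after centring, with the length and GC correction and after quantile normalization. With equal FPKM sums it was 0.15 (limma adjusted p = 0.235). Reads of USP32 and its partial copy USP6 may be shared.

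USP2, a low-level member known for rhythmic expression and for acting on cyclin D1, stood at 1.13, 1.80 and 1.58 FPKM in overexpression libraries. In vector libraries it stood at 0.38, 0.57 and 0.77 FPKM. The ratio of means was 2.62, the highest among tested members, and the log2 difference on the FPKM + 0.5 scale was 0.90 (SE 0.207; limma adjusted p = 0.0112). The adjusted p of USP2 was 0.0689 with equal FPKM sums and 0.0584 with the length and GC correction.

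USP39, a catalytically inactive member that belongs to the spliceosome, stood at 19.55, 23.88 and 18.37 FPKM in overexpression libraries and at 12.82, 12.32 and 14.76 in vector libraries. Its 0.61 log2 (limma adjusted p = 0.00728) passed after centring but was 0.17 with the length and GC correction (limma adjusted p = 0.311). After quantile normalization USP39 was at 0.18 log2, and with equal FPKM sums at 0.08 (limma adjusted p = 0.282 and 0.636). USP28, known to stabilise MYC and to act in DNA damage signalling, stood at 14.82, 11.72 and 15.63 FPKM in overexpression libraries and at 8.61, 9.84 and 9.24 in vector libraries. USP28 differed by 0.57 log2 (limma adjusted p = 0.00989) and by 0.36 after centring (limma adjusted p = 0.0525). It passed with the length and GC correction (0.43 log2, limma adjusted p = 0.0253). After quantile normalization USP28 was at 0.22 log2, and with equal FPKM sums at 0.05 (limma adjusted p = 0.184 and 0.779).

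USP4, a signalling enzyme that also meets the spliceosome through SART3, stood at 9.85, 9.67 and 9.25 FPKM in overexpression libraries and at 5.84, 6.20 and 7.54 in vector libraries (0.53 log2, limma adjusted p = 0.00909). USP36, a nucleolar enzyme, stood at 5.66, 5.93 and 6.51 FPKM in overexpression libraries and at 4.01, 4.54 and 3.76 in vector libraries (0.51 log2, limma adjusted p = 0.00977). Both stood apart by library, yet neither passed after centring (limma adjusted p = 0.0526 for USP4 and 0.0762 for USP36). With equal FPKM sums the differences were 0.01 log2 for USP4 and 0.01 for USP36.

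USP25, the closest paralogue of USP28, stood at 4.11, 3.47 and 3.69 FPKM in overexpression libraries and at 2.75, 2.85 and 2.81 in vector libraries (0.36 log2, limma adjusted p = 0.0300). USP19, an enzyme anchored in the endoplasmic reticulum membrane, stood at 6.09, 6.37 and 6.85 FPKM in overexpression libraries and at 5.31, 4.75 and 5.07 in vector libraries (0.32 log2, limma adjusted p = 0.0322). These were the smallest of the called rises, and their sign turned with equal FPKM sums, to -0.11 for USP25 and -0.18 for USP19. Leaving out single libraries also ended both calls. The adjusted p of USP25 was 0.0909 and 0.0835 without overexpression replicates 1 and 3, and 0.0644, 0.0519 and 0.0595 without vector replicates 1, 2 and 3. That of USP19 was 0.0733 and 0.118 without overexpression replicates 2 and 3, and 0.0751 and 0.0622 without vector replicates 2 and 3.

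**Figure D3:**
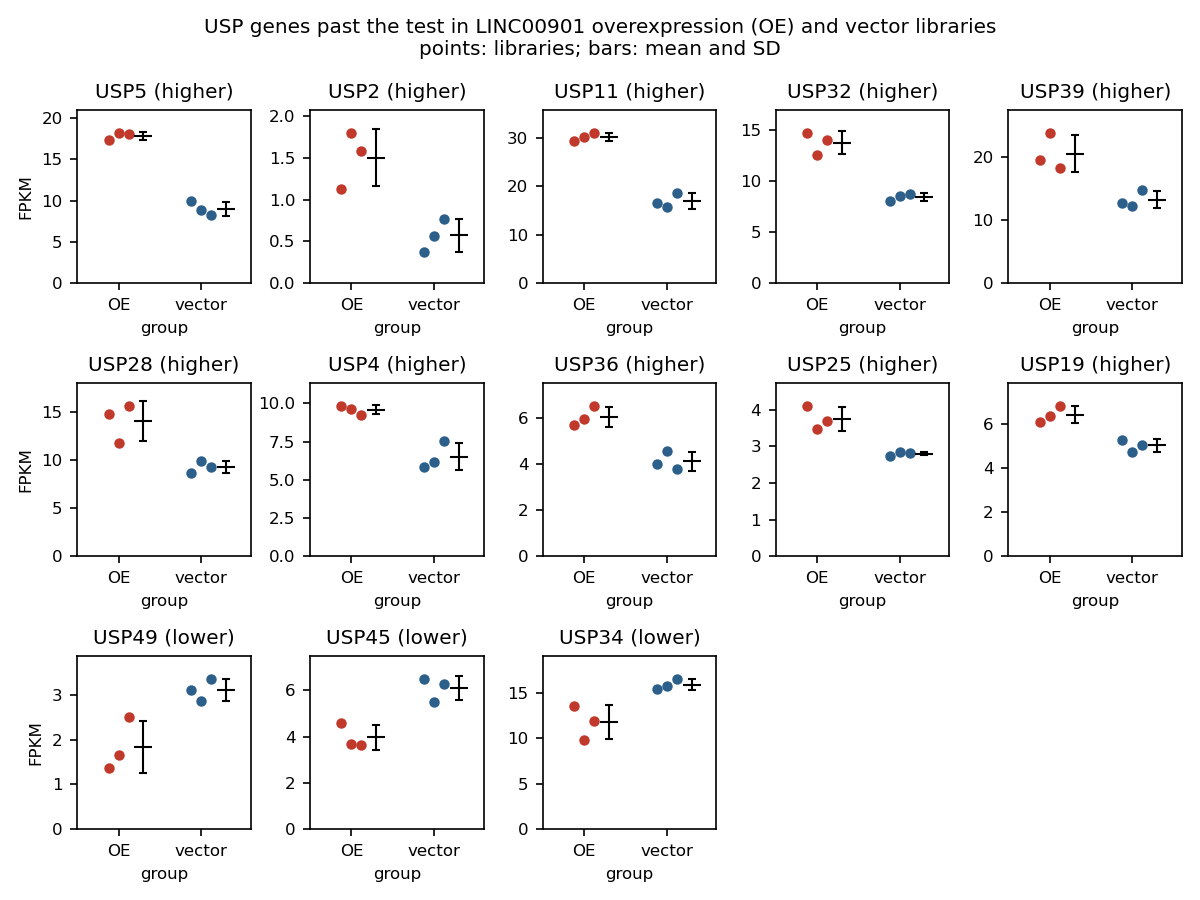
FPKM by library for the 13 USP genes past the test on unscaled values, with 1 panel per gene and the vertical axis from 0. Points are libraries, overexpression (OE) left of vector, with the mean and SD beside them. The groups are separate in every panel, with 10 genes higher and 3 (USP34, USP45 and USP49) lower in overexpression libraries.

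By role, calls in both directions occurred among genome maintenance, chromatin and signalling genes. These counts stand beside 37.4% higher and 11.9% lower among all tested rows. Of 7 genome maintenance genes, all tested, 2 rose (USP11 and USP28) and 1 fell (USP45). USP7, which acts on MDM2 and p53 and was named after its values were seen, stood at 11.31, 10.82 and 9.79 FPKM in overexpression libraries and at 7.67, 8.45 and 9.53 in vector libraries. The USP7 groups were separate, but the difference of 0.30 log2 had a limma adjusted p of 0.0601, and of 0.0368 without vector replicate 3. USP10, which binds the stress granule proteins G3BP1 and G3BP2, varied widely in overexpression libraries, at 10.47, 19.29 and 17.59 FPKM against 14.64, 8.86 and 12.64 (limma adjusted p = 0.296).

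Of 8 tested genes for histones and chromatin, USP36 rose and USP49 fell. The SAGA-type enzymes USP22, USP27X and USP51 did not pass. USP27X was listed at 4.57, 0.00 and 3.96 FPKM in overexpression libraries, against 1.56, 2.77 and 2.17 in vector libraries. That listed 0 may be an estimate that failed, and overexpression replicate 2 decides the USP27X result. Its log2 difference was -0.22 with all libraries (limma adjusted p = 0.843) and 0.86 without that library (limma adjusted p = 0.0279). USP51 ranged from 1.35 to 2.50 FPKM in overexpression libraries and from 1.54 to 2.33 in vector libraries. USP27X and USP51 resemble USP22 in sequence, so reads could be shared. USP16, a deubiquitinase of histones in mitosis, had means of 3.29 and 3.65 FPKM, USP21 of 4.86 and 3.81, and USP42 of 3.81 and 3.29, in overexpression and vector libraries in that order, and none passed unscaled (limma adjusted p = 0.485, 0.0837 and 0.307). With equal FPKM sums USP16 was called lower (-0.62 log2, limma adjusted p = 0.0148).

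Of the 3 genes of chain recycling and the proteasome, USP5 rose. USP14, which trims ubiquitin from substrates at the proteasome, stood at 23.91, 16.56 and 13.36 FPKM in overexpression libraries and at 12.90, 12.49 and 15.47 in vector libraries. The groups overlapped (limma adjusted p = 0.1995), and overexpression replicate 1 was far above the rest. USP13, the closest paralogue of USP5, stood at 3.58, 8.22 and 3.68 FPKM in overexpression libraries and at 9.51, 8.10 and 7.73 in vector libraries. Its difference of -0.75 log2 had a limma adjusted p of 0.0718. Without overexpression replicate 2, the 1 library in the range of the vector values, the USP13 difference was -1.11 log2 (limma adjusted p = 0.00261). After centring all 6 libraries it was -0.96 (limma adjusted p = 0.0385), and it also passed after quantile normalization and with equal FPKM sums (limma adjusted p = 0.0312 and 0.0123).

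Of 8 tested genes of membranes and organelles, USP2, USP32 and USP19 rose and none fell without scaling, a share of rises near the 37.4% of all tested rows. USP8, which works with ESCRT proteins on endosomes, had means of 3.46 ± 0.346 FPKM in overexpression and 2.71 ± 0.179 in vector libraries (SD, n = 3 each), with separate groups (0.30 log2, limma adjusted p = 0.0738). With the length and GC correction USP8 differed by 0.59 log2 (limma adjusted p = 0.00524), and its longest annotated transcript is 19.0 kb. USP30, on the mitochondrial outer membrane where it opposes parkin, was low in both groups, with means of 1.56 and 1.29 FPKM in overexpression and vector libraries. USP20 and USP33, which are paralogues known to act on endocytosed receptors, had log2 differences of 0.27 and -0.07 and did not pass unscaled (limma adjusted p = 0.169 and 0.619). USP33 was called lower after quantile normalization and with equal FPKM sums (limma adjusted p = 0.0192 and 0.00441).

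Of 10 genes of signalling and the cell cycle, USP4 and USP25 rose and USP34 fell. USP37, which acts on cyclin A, stood at 6.03, 4.36 and 5.44 FPKM in overexpression libraries and at 6.66, 5.92 and 6.82 in vector libraries (-0.28 log2, limma adjusted p = 0.132). USP37 passed after centring, at -0.49 log2 (limma adjusted p = 0.0232), after quantile normalization and with equal FPKM sums (limma adjusted p = 0.0217 and 0.00386). USP15, USP24, USP38, USP46, USP48 and USP12 did not pass without scaling and lay between -0.13 and 0.21 log2. USP46 and USP48 were called lower with equal FPKM sums (limma adjusted p = 0.0449 and 0.00913), and USP15 higher once length and GC content were corrected for (limma adjusted p = 0.0125). The 4 tested members of less defined role, USP31, USP35, USP40 and USP54, did not pass unscaled either, with differences of 0.14, -0.19, -0.31 and -0.16 log2. USP40 was called lower under each of the 4 other scalings, at -0.49 to -0.81 log2 (limma adjusted p = 0.00267 to 0.0194). USP54 was called lower under 3 of them, all but quantile normalization (limma adjusted p = 0.0353 after centring). USP35 was called lower under 2, with equal FPKM sums and with length and GC content corrected for (limma adjusted p = 0.0269 and 0.0305).

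**Figure D4:**
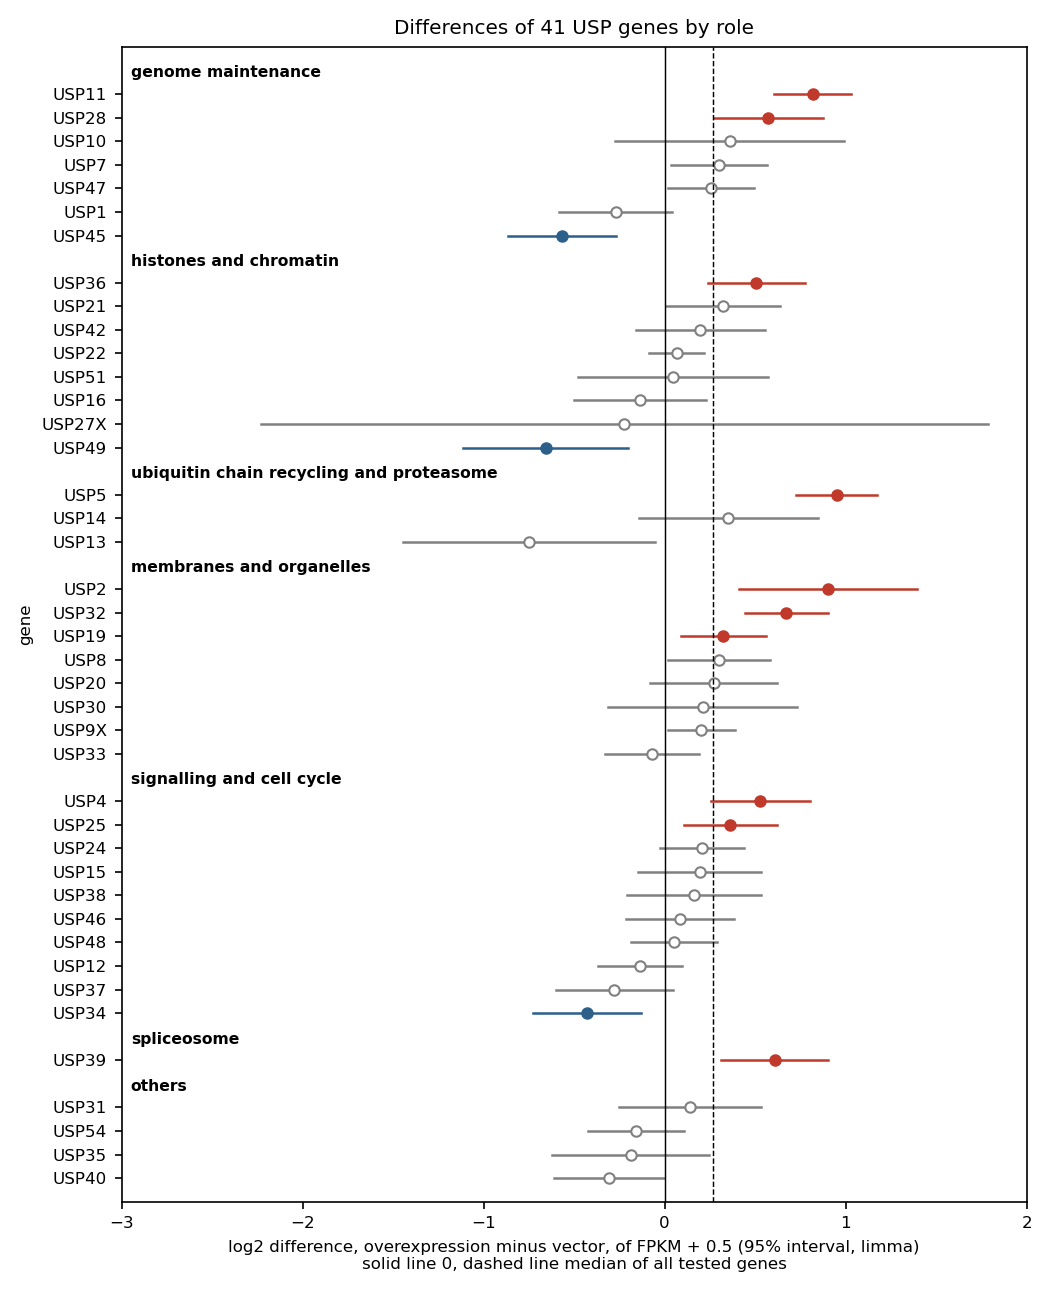
Log2 difference of each tested USP gene, overexpression minus vector, with its 95% interval from limma, grouped by role. Filled points passed the test (red higher, blue lower), open grey points did not, and the dashed line is the median of all tested genes at 0.27. Of the 41 genes, 16 lie above that line and 25 below it.

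Ratios between paralogues within a library do not change when a whole library is rescaled, but gene length and GC content are not corrected for in them. Of 14 pairs of tested paralogues, 5 had ratios that did not overlap between the groups. Among single tested rows the groups did not overlap for 60.6%. No share over other gene pairs was computed, so the count is not a result about paralogues. With 3 libraries a group an exact two-sided permutation test cannot go below p = 0.1, so these are given as values. USP5 was 4.84, 2.22 and 4.90 times the level of USP13 in overexpression libraries, and 1.04, 1.09 and 1.07 times in vector libraries. The pair was near parity in each vector library and led by USP5 in each overexpression library.

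In the set of USP4, USP11 and USP15, which share their domain layout, USP11 was 9.69, 13.9 and 13.0 times USP15 in overexpression libraries and 8.05, 7.57 and 8.28 times in vector libraries. Corrected for length and GC content, the log2 differences were 0.46 for USP11 and 0.51 for USP15, so the larger rise of USP11 was not kept. USP11 was 2.99, 3.12 and 3.35 times USP4 in overexpression libraries and 2.83, 2.53 and 2.48 times in vector libraries. USP45 was 1.19, 1.36 and 1.11 times its paralogue USP16 in overexpression libraries and 1.82, 1.70 and 1.51 times in vector libraries. The last of the 5 pairs was USP36 over USP42, at 1.41, 1.59 and 1.77 in overexpression libraries and 1.28, 1.12 and 1.39 in vector libraries. Apart from USP11 over USP15, the differences corrected for length and GC content lay in the same order within these pairs as the unscaled ones. Ratios of USP28 to USP25, USP7 to USP47, USP12 to USP46 and USP33 to USP20 overlapped between the groups.

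**Figure D5:**
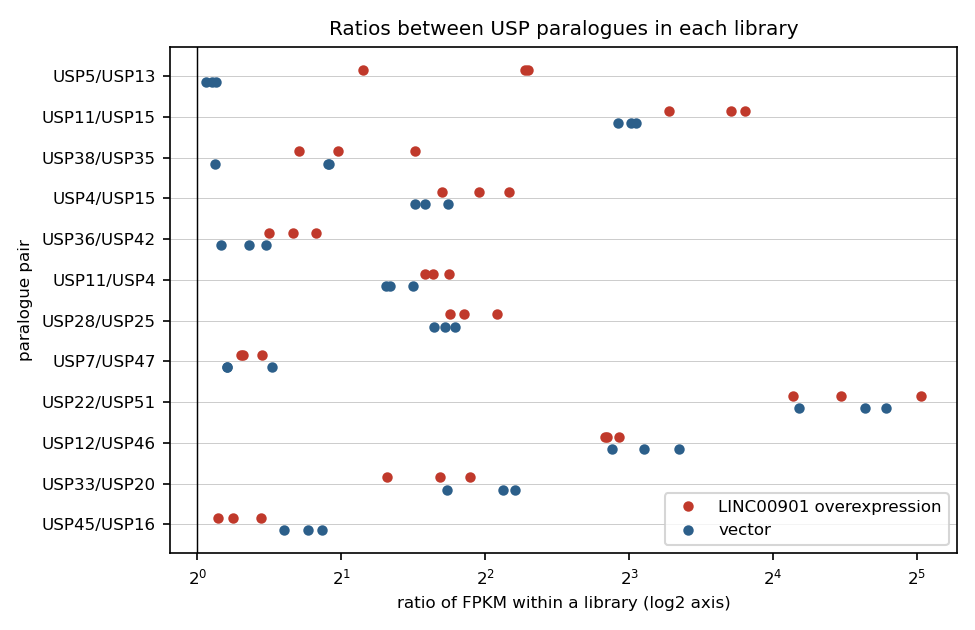
Ratio of FPKM between paralogues within each library (horizontal log2 axis), with overexpression points drawn above vector points. The ratio of USP5 to USP13 is between 2.22 and 4.90 in overexpression libraries and between 1.04 and 1.09 in vector libraries; pairs with USP27X are left out because of its listed 0.

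Gene length and base composition moved with the differences. The tested members had a median longest transcript of 5.16 kb, against 3.72 kb for the tested rows with a length. Over the 41 members the Spearman correlation of the unscaled log2 difference was -0.37 with length and 0.38 with GC content. Over the 8830 tested rows with an annotation it was -0.31 and 0.29. Of the members that fell, USP34 has a longest transcript of 11.4 kb, USP49 of 9.03 kb and USP45 of 6.25 kb. Of those that rose, USP5 has 3.18 kb and USP11 has 3.52 kb. The other members called higher without scaling ran from 2.18 kb (USP39) to 6.06 kb (USP36), near the length of USP45. With length and GC content taken out the log2 difference was 0.54 for USP5, 0.46 for USP11, -0.50 for USP45, -0.69 for USP49 and -0.29 for USP34 (limma adjusted p = 0.00560, 0.00482, 0.0119, 0.0314 and 0.0475).

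A list of other deubiquitinases held the UCH, OTU, Josephin, JAMM and MINDY families and ZUP1. It also held CYLD, USPL1 and PAN2, which were listed for their USP fold and not for an activity on ubiquitin. Of its 38 genes 33 had a row and 29 were tested, of which 12 were higher and 4 lower without scaling (41.4% and 13.8%, against 37.4% and 11.9% of all tested rows). After centring 7 were higher and 7 lower (24% and 19.2% of all rows), and with equal FPKM sums 3 and 11 (11.9% and 34.5% of all rows). TNFAIP3, an inhibitor of NF-kB signalling also called A20, stood at 4.27, 3.84 and 4.40 FPKM in overexpression libraries and at 0.71, 0.74 and 0.72 in vector libraries (1.93 log2, limma adjusted p = 0.000114). OTUD1 stood at 1.77, 2.18 and 1.38 FPKM in overexpression libraries against 0.58, 0.52 and 0.31 (1.23 log2, limma adjusted p = 0.00263). OTUD3, which fell, stood at 1.96, 2.53 and 1.86 FPKM against 6.05, 5.44 and 4.68 in vector libraries (-1.17 log2, limma adjusted p = 0.00106). TNFAIP3, OTUD1 and OTUD3 kept their calls under all 5 scalings. JOSD2 stood at 3.08, 5.30 and 5.13 FPKM in overexpression libraries against 2.64, 1.31 and 1.27, and MPND at 1.91, 2.37 and 2.71 FPKM against 0.21, 1.56 and 0.63. JOSD2 (1.18 log2, limma adjusted p = 0.0139) and MPND (1.25 log2, limma adjusted p = 0.0291) lost theirs with equal FPKM sums and once length and GC content were corrected for. The MPND call was also lost after centring (limma adjusted p = 0.0608), without any 1 overexpression replicate (adjusted p 0.0544 to 0.0853) and without vector replicate 1 or 3 (0.0507 and 0.0714).

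Of 14 listed partner and ubiquitin genes 13 had a row and were tested, of which 7 were higher and 1 lower without scaling, against 37.4% and 11.9% of all tested rows. With equal FPKM sums 4 were higher and 3 lower, against 11.9% and 34.5%. WDR48, the activating partner of USP1, USP12 and USP46, stood at 7.28, 7.04 and 7.53 FPKM in overexpression libraries and at 2.88, 3.89 and 4 in vector libraries. WDR48 differed by 0.94 log2 (limma adjusted p = 0.00170), and its groups were separate where those of USP1, USP12 and USP46 overlapped. WDR20, the other tested WDR partner in the list, had groups that overlapped (0.18 log2, limma adjusted p = 0.447). No scaling gave WDR20 a call. G3BP2, a partner of USP10, stood at 21.91, 22.73 and 23.29 FPKM in overexpression libraries and at 11.31, 12.79 and 13.24 in vector libraries (0.84 log2, limma adjusted p = 0.000555). G3BP1, the other listed partner of USP10, went the other way, at -0.19 log2 with separate groups (limma adjusted p = 0.0891). G3BP1 was called lower after centring, after quantile normalization and with equal FPKM sums. SART3, a partner of USP4 and USP15, stood at 7.89, 8.91 and 8.64 FPKM in overexpression libraries and at 3.86, 3.58 and 5.60 in vector libraries. SART3 differed by 0.91 log2 (limma adjusted p = 0.00441), but by 0.41 with equal FPKM sums (limma adjusted p = 0.0797). ATXN7, of the SAGA deubiquitinase module, was the gene that fell, at -0.47 log2 (limma adjusted p = 0.0128), and without overexpression replicate 3 the count of partner genes called lower was 0. ATXN7L3, of the same module, was called higher without scaling (0.38 log2, limma adjusted p = 0.0271) but under no other scaling. ENY2, also of that module, did not pass (-0.02 log2, limma adjusted p = 0.914). GMPS, a listed partner of USP7, was called in opposite directions by different scalings. Without scaling GMPS was higher (0.29 log2, limma adjusted p = 0.0189), as it was when corrected for length and GC content. After quantile normalization and with equal FPKM sums GMPS was called lower.

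RPS27A, which encodes ubiquitin fused to a ribosomal protein, stood at 59.38, 60.13 and 53.83 FPKM in overexpression libraries against 20.76, 16.48 and 19.68 in vector libraries. RPS27A rose by 1.59 log2 (limma adjusted p = 0.000135), and its groups were separate. The polyubiquitin gene UBB did not pass, at 177 ± 80.2 FPKM in overexpression and 152 ± 23.2 FPKM in vector libraries (SD, n = 3 each; limma adjusted p = 0.719).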

How the data were processed

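RNA of 3 libraries of LINC00901-overexpressing and 3 of vector-control MIA PaCa-2 cells was sequenced. The authors deposited FPKM values with 2 decimals, 1 column per library, per the file headers. The submitters' processing notes name cutadapt, FastQC, HISAT2 and hg19, and no source used here names the tool behind the FPKM values or the strand setting. So overlapping and antisense genes cannot be separated. The values carry no read counts, so the depth is unknown and no counting interval was computed.

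Values were taken as log2(FPKM + 0.5), which understates changes of low genes. Rows with a mean of at least 1 FPKM (9694 rows) entered the trended moderated test of limma 3.58.1 (R 4.3.3), with Benjamini-Hochberg adjustment and a two-sided threshold of 0.05. The fit was tested on simulated data. Relative differences subtract the median of all tested log2 differences. Lengths and GC content are those of the longest GENCODE 29 transcript by symbol, known for 91.1% of tested rows, and the correction is a loess trend per library. Python 3.11.15 and pandas 2.3.3 served for the other steps.

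The members, role classes, paralogue sets and lists were chosen with earlier results of these data known. Values in every library are given for the called members with the 10 largest rises and 10 largest falls and for the 6 highest by mean, and for the 5 largest called differences in each of the other lists. Some of these are not reported here. ATXN7, ATXN7L3, ENY2, G3BP1, GMPS, UBB and the result of WDR20 were added after their values were seen. Values are also given for other members where the text says so or where libraries differ widely, which was decided after seeing their values. Alternatives were other pseudocounts, filters, scalings and variance settings, the replicate block and leaving out each library. Scaling to equal FPKM sums was added after seeing the data.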

Additional observations from a re-analysis of the deposited data

How the results depend on the processing

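Counts of calls moved mainly with the scaling. Without scaling 10 USP genes were higher and 3 lower, and the counts were 5 and 9 after centring, 4 and 12 after quantile normalization, 10 and 7 corrected for length and GC content, and 2 and 17 with equal FPKM sums, a scaling chosen after seeing the data. At a threshold of 0.01 there was 1 lower. The median USP log2 difference was 0.20, and -0.011, -0.029, -0.0022 and -0.28 under those 4 scalings in that order. Over all genes 3621 were higher and 1152 lower, against 2331 and 1866 after centring, 2024 lower and 1865 higher after quantile normalization, 1755 higher when corrected for length and GC content, 1155 and 3345 with equal FPKM sums, 2396 and 422 with a mean of at least 5 FPKM, and 2287 and 594 at a threshold of 0.01. For the list of other deubiquitinases, with its USP-fold genes (12 higher, 4 lower), the counts were 7 and 7 after centring, 3 and 11 with equal FPKM sums, 4 and 2 with a mean of at least 5 FPKM and 7 and 2 at 0.01. For partner and ubiquitin genes (7 higher, 1 lower), 4 were higher and 3 lower with equal FPKM sums, and 2, 3, 0 and 0 were lower after centring, after quantile normalization, with a mean of at least 5 FPKM and at 0.01. The filter of 5 FPKM left 4830 rows to test over all genes, 13 other deubiquitinases and 10 partner and ubiquitin genes. Counts under that filter are out of these smaller totals. ATXN7, the gene lower without scaling, had means of 2.31 and 3.38 FPKM in overexpression and vector libraries and was not tested there. The cause of the shifts with scaling was not tested.

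Leaving out each library in turn gave 8 to 11 USP genes higher and 1 to 3 lower, with 1 lower without vector replicate 3. It gave 8 to 12 other deubiquitinases higher and 2 to 4 lower, 5 to 7 partner genes higher and 0 to 1 lower, 2768 to 3371 genes higher and 812 to 1004 lower over all genes, and a median USP difference of 0.15 to 0.22. Without overexpression replicate 3, 2 other deubiquitinases and 0 partner genes were lower. Of the 41 USP differences 28 were positive and 13 negative without scaling, against 18 and 23 after centring, 17 and 24 after quantile normalization, 20 and 21 corrected for length and GC content, and 8 and 33 at equal FPKM sums. Over all tested rows 6496 were positive and 3198 negative without scaling, 5225 and 4469 after centring, and 4860 and 4834 after quantile normalization. Corrected for length and GC content 4485 and 4345 of 8830 rows were so, and at equal FPKM sums 3358 and 6336 of all tested rows. Where a value passed the test with or without the change of setting, the sign turned for USP19 with the length and GC correction (-0.0022), and at equal FPKM sums for USP19 (-0.18), USP25 (-0.11), USP22 (-0.47), USP24 (-0.33), USP9X (-0.33), USP46 (-0.37) and USP48 (-0.46). With quantile normalization such signs turned for USP22 (-0.56), USP24 (-0.30) and USP9X (-0.29), and without overexpression replicate 2 for USP27X, whose values ran from -0.81 to 0.86 when single libraries were left out. Replicate numbers are not stated to pair libraries, and same-numbered libraries did not deviate together (correlations of -0.04, -0.01 and -0.01). With the replicate number as a block 8 USP genes were higher and 3 lower (19.5% and 7.32%), against 33.6% and 9.95% of all tested rows. Under that block USP19 and USP25 had limma adjusted p of 0.0785 and 0.0758.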
